A study of Mus musculus with 17 samples.

Results

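Chromatin accessibility was described at 9 genes that carry organic ions across the membranes of the kidney proximal tubule: Slc22a6, Slc22a8, Slc22a7, Slc22a2, Slc47a1, Slco4c1, Abcg2, Slc22a12 and Slc2a9. They were chosen by name, as 9 of 21938 protein-coding genes, and not by a limit on a measured value. Earlier results of these data were known when the choice was made. For each gene the window ran from 10 kb upstream of the gene to its end on the mouse build mm10, and all summits of accessible chromatin inside it were collected. The windows held 45 of the 52562 regions found in at least 2 of the 17 libraries.

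The data came from ATAC-seq, in which a transposase cuts and tags the open DNA of nuclei, on mouse kidney with 20000 cells per library. The Ctrl group held 5 male C57BL/6 mice given saline. The Case group held 6 male mice of the strain BKS.Cg-Dock7m +/+ Leprdb/J, called db/db, given saline. Mice of this strain carry the Leprdb mutation of the leptin receptor in all tissues and become obese and diabetic. The Dapa group held 6 male mice of the same strain, treated by mouth with the SGLT2 inhibitor dapagliflozin at 1 mg/kg/day, which blocks glucose uptake from the urine. Mice entered at 8 weeks of age, treatment lasted 6 weeks, and each library was 1 mouse. Genotype, diabetes and background strain differed together between Ctrl and both db/db groups and cannot be told apart. In a bulk kidney library, fewer cells of a type and less accessible DNA per cell cannot be told apart either.

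Proximal tubule cells take organic anions and cations from the blood at their basolateral side and release them into the urine at their apical side. The basolateral step uses SLC22 carriers, and the apical step uses the proton exchanger of the SLC47 family and ATP-driven pumps such as ABCG2. Urate passes the same cells in both directions: URAT1, the product of Slc22a12, takes it back from the urine, GLUT9, the product of Slc2a9, moves it on to the blood, and ABCG2 secretes it. Several of these genes are known targets of the transcription factor HNF4A, which is active in this cell type.

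A region is named here by its gene and by the distance in bases of its median summit from the annotated 5′ end of the gene, with a minus sign for upstream. The reference sequence (GRCm38.p6, the same build as mm10) is shown for the regions on which the results turn. In the first set the capitals mark the stretch between the lower and upper quartiles of the summits of the libraries, cut at the edge of the window where it ran further. The regions Slc22a8 +14025 (chr19:8605179-8605379), Slc22a12 -9390 (chr19:6552322-6552522) and Slc2a9 +23168 (chr5:38479875-38480075) are shown because all 17 libraries had a summit there. Slc2a9 +36273 (chr5:38466770-38466970) held the only call after adjustment. Slc22a12 -5707 (chr19:6548639-6548839) had the next smallest p between Dapa and Ctrl. These windows are 201 bases of the plus strand around the median summit. The promoter of Slco4c1 (chr1:96872172-96872421, minus strand, the 250 bases before the RefSeq start) belongs to the gene with the largest difference between groups.
Slc22a8 +14025: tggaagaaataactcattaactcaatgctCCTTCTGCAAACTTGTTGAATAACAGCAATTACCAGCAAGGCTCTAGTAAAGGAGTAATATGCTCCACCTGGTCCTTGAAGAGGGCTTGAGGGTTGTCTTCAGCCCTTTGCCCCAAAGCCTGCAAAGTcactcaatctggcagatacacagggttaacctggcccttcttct
Slc22a12 -9390: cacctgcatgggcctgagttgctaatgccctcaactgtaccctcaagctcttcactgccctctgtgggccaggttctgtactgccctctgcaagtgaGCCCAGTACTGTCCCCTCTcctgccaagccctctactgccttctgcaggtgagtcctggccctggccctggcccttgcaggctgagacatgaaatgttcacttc
Slc2a9 +23168: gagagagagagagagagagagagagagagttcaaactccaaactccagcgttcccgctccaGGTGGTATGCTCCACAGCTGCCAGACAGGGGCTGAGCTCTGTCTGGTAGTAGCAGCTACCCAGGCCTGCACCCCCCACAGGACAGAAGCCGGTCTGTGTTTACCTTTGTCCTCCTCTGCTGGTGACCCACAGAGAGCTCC
Slc2a9 +36273: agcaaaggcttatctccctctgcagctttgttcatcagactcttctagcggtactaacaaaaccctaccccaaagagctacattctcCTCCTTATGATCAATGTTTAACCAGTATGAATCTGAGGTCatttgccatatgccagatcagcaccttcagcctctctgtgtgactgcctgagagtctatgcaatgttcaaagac
Slc22a12 -5707: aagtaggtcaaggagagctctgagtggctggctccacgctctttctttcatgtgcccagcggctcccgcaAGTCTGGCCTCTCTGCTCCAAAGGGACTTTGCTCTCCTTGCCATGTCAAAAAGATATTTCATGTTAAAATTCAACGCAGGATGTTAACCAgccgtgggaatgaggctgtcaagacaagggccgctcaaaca
Slco4c1 promoter: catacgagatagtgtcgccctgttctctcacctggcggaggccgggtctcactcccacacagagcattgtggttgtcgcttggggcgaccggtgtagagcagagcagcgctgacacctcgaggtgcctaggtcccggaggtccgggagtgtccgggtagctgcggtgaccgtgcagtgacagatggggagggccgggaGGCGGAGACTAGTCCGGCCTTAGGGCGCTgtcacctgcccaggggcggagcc

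In the second set the capitals mark matches to a motif in some of the regions named in the text. The motifs reported, among those searched on both strands, were the core CAAAGTCCA bound by HNF4 factors and TGANTCA bound by AP-1 factors, with N for any base. Slc47a1 -499 (chr11:61378744-61378944) and Slc22a12 -3311 (chr19:6546243-6546443) held TGANTCA, both shown on the plus strand. Slc22a7 +4650, Abcg2 +17748 and Abcg2 +49419 also held TGANTCA and are not shown.
Slc47a1 -499: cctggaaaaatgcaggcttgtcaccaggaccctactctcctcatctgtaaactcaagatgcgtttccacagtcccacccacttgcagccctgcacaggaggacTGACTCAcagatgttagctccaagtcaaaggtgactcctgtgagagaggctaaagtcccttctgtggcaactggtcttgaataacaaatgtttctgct
Slc22a12 -3311: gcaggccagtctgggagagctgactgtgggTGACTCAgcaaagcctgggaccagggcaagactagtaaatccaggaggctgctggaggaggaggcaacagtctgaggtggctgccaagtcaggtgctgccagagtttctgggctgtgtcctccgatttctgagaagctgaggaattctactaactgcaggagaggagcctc

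In windows of 201 bases around the median summit, CAAAGTCCA occurred in 0 of the 45 regions of these genes and in 1.90% of all 52562 regions. TGANTCA occurred in 5 of 45 (11.1%) and in 6.82% of all regions. In the 250 bases before 32851 annotated starts these shares were 0.384% and 6.75%. The median GC content was 51.2% over the 45 regions and 53.2% over all regions. The 13 regions within 1 kb of a start of the gene had a median of 58.2% and the other 32 regions 50.2%. The motif matches are descriptions of the letters in these windows only.

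The libraries held 29702 to 56659 summits. The lists give no read totals, so depth is unknown and no counting interval is given. Within each library summits were ranked by the score of the deposited list, and about the 29702 highest were kept, the length of the shortest list (28453 to 30788, because summits tied at the limit stayed or went together). The percentile of a gene or region is that of its best summit in this ranking, with 100 for the top of the list and 0 for no summit. Case 3 shared the fewest regions with the other libraries (mean Jaccard index 0.418, the shared regions over those in either), and Case 2 (0.496), Case 4 (0.504) and Dapa 8 (0.517) came next, against 0.527 to 0.568 for the rest. Case 2, Case 3 and Dapa 8, which earlier results of these data had set apart, were also left out together, a choice made after seeing the data, and values without them stand beside some of the differences. Case 4 was kept, although its Jaccard index was below that of Dapa 8. Of 8 proximal tubule marker genes, 6 to 8 had a summit within 1 kb of a start in every library, so the labelled tissue carried its main cell type in all groups. Their summed percentile ranged from 543 to 583 in Ctrl, from 527 to 598 in Case and from 458 to 614 in Dapa, and each marker had a summit in at least 1 library. Among them Slc5a2, which encodes SGLT2, the target of dapagliflozin, had means of 41.0 ± 23.3 (SD, n = 5) in Ctrl, 2.88 ± 7.06 (SD, n = 6) in Case and 18.6 ± 26.6 (SD, n = 6) in Dapa, with Case minus Ctrl at an exact permutation p of 0.0152 (adjusted p = 0.280). In the complete lists 5 Ctrl, 3 Case and 5 Dapa libraries had a summit in the Slc5a2 window. Of the 8 markers, 5 were higher and 3 lower in Case than in Ctrl, with a median difference of 2.55. For markers of other cell types the summed percentile in Ctrl, Case and Dapa reached 25.2, 72.6 and 77.6 for 4 endothelial genes, 119, 190 and 193 for 5 collecting duct genes, 119, 148 and 155 for 4 genes of the thick limb and distal tubule, and 73.1, 122 and 102 for 3 stromal genes. The lowest sums were 57.6, 63.7 and 71.7 for the collecting duct genes, of which Atp6v1g3 was at 0 in all libraries, and 65.9, 70.0 and 75.5 for those of the thick limb and distal tubule. The 6 leukocyte genes ran from 222 to 297, 191 to 295 and 233 to 306. At most 0, 2 and 1 of these 6 genes had a summit within 1 kb of a start in a Ctrl, Case and Dapa library. The leukocyte sums thus came mainly from summits elsewhere in the windows. The part of these cells in the results was not tested.

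All 9 genes had a summit in the window in at least 1 library, as did 85.4% of all protein-coding genes. Slc22a8, Slc47a1, Abcg2, Slc22a12 and Slc2a9 had one in all 17 libraries, 5 of 9 genes against 41.6% of protein-coding genes. Accessible chromatin at a start was less regular: only Slc2a9 had a summit within 1 kb of a start in every library, 1 of 9 genes against 31.7%. Of the 45 regions, 31 lay in an intron, 4 in an exon and 10 upstream. Per 10 kb of window, Slc22a12 held the most summits (mean 1.85 per library) and Slco4c1 the fewest (0.0803), beside a median of 0.202 over protein-coding genes.

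Across the groups no gene passed the test after adjustment. The percentile of the best summit was compared by an exact permutation test, 2-sided, and the presence of a summit by Fisher's exact test, 2-sided, each with Benjamini-Hochberg adjustment over all genes tested, and an adjusted p under 0.05 was the threshold. The 4 contrasts were Case minus Ctrl, Dapa minus Case, Dapa minus Ctrl, and both db/db groups minus Ctrl. The contrasts with Ctrl share the same 5 Ctrl libraries and are not independent of each other. By percentile, 0 of the 9 genes and 0% of all genes tested were called in every contrast, with a smallest adjusted p over all genes of 0.258, 1, 0.247 and 0.0729. At an unadjusted p under 0.05, the count was 1 of 9 genes between Case and Ctrl (12.4% of all genes tested), 0 between Dapa and Case (3.76%), 0 between Dapa and Ctrl (13.3%) and 1 between db/db and Ctrl (12.9%). That gene was Slco4c1 in both. Presence could be tested for 2, 2, 2 and 3 of the 9 genes, since the margins of the others could not give an unadjusted p under 0.05, and none had an unadjusted p under 0.05 (7.9%, 1.02%, 5.59% and 6.92% of all genes tested) or an adjusted one (0%).

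**Figure D1:**
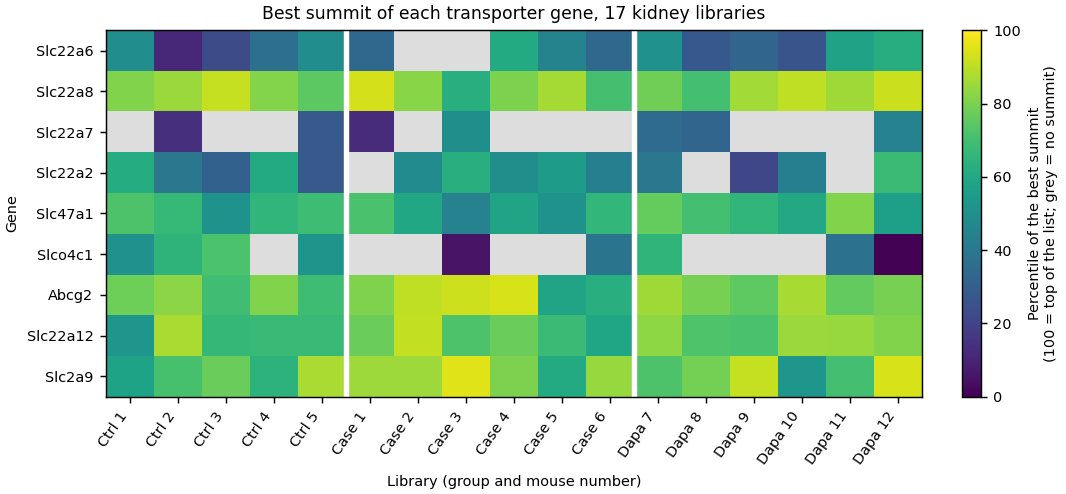
Percentile of the best summit in the window of each of the 9 genes (rows, 100 for the top of the list, grey for no summit) in each of the 17 libraries (columns, split by white lines into Ctrl, Case and Dapa). Slc22a8, Abcg2, Slc22a12 and Slc2a9 stood above 50 in every library, and Slc22a7 and Slco4c1 had no summit in 10 and 8 of the 17 libraries.

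Slc22a8 encodes OAT3, which takes anionic drugs and toxins from the blood in exchange for a dicarboxylate. Its window (chr19:8581254-8611835) had a best-summit percentile of 81.1, 85.1, 91.2, 81.3 and 74.8 in Ctrl 1 to 5. In Case it ran from 63.2 to 93.6 (median 81.2) and in Dapa from 70.1 to 91.9 (median 86.0). The 3 groups overlapped throughout, and the mean difference of Case from Ctrl was -3.28 (exact permutation p = 0.582) and that of Dapa from Case 4.38 (exact permutation p = 0.457). Without Case 2, Case 3 and Dapa 8, Case minus Ctrl was 0.0620 (exact permutation p = 0.992). The best summit was the same in all libraries, the intronic region Slc22a8 +14025 (chr19:8604554-8605592), 1 of only 3 of the 45 regions with a summit in all 17 libraries. Among all regions a larger share, 7892 of 52562, had a summit in all 17 libraries. A second region, Slc22a8 +1859, was present in 14 libraries (4 Ctrl, 6 Case and 4 Dapa). Its median summit lay 69 bases before the RefSeq start of the gene, while the start annotated by GENCODE is further upstream.

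Slc22a6 encodes OAT1, the partner of OAT3 and the carrier used for para-aminohippurate clearance. The best percentile was 48.9, 11.3, 23.0, 36.5 and 49.2 in Ctrl 1 to 5, ran from 0 to 61.0 in Case (median 33.8) and from 26.0 to 62.5 in Dapa (median 41.6). The groups overlapped, with Case minus Ctrl at -4.85 (exact permutation p = 0.695) and Dapa minus Case at 13.9 (exact permutation p = 0.281). The libraries without any summit in this window were Case 2 and Case 3. Without them and Dapa 8, Case minus Ctrl was 9.61 (exact permutation p = 0.405) and Dapa minus Case 2.49 (exact permutation p = 0.810). The start region Slc22a6 +118 was present in 5 Ctrl, 4 Case and 3 Dapa libraries. The upstream region Slc22a6 -4705 was present in 3 Ctrl, 3 Case and 6 Dapa libraries, with Dapa minus Case at 15.7 (exact permutation p = 0.126), or 8.65 without Case 2, Case 3 and Dapa 8 (exact permutation p = 0.468). The region Slc22a6 -6525 lies inside the neighbouring Slc22a8 and in the windows of both genes, and was counted for Slc22a6.

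Slc22a7 encodes OAT2, a carrier of organic anions and nucleotides that is also expressed in the liver. It had the sparsest signal of the anion carriers, with a summit in 2 Ctrl, 2 Case and 3 Dapa libraries. The percentiles of the libraries with a summit were 13.4 and 27.9 in Ctrl 2 and 5, 12.7 and 50.0 in Case 1 and 3, and 35.0, 32.6 and 44.5 in Dapa 7, 8 and 12. Slc22a7 -138, before the start, was present in 2 Ctrl libraries and in 0 of 12 db/db libraries, and Slc22a7 +1512, in an exon, in 3 of 6 Dapa libraries and in no Ctrl or Case library. Slc22a7 +4650, in an intron, was shared by Case 3, Dapa 7 and Dapa 8, and the summit of Case 1 lay at -6457, upstream and outside these regions. In the complete lists Slc22a7 -138 was present in 4 of 5 Ctrl and again 0 of 12 db/db libraries. For Slc22a7 -138, db/db minus Ctrl was -8.27 (exact permutation p = 0.0735), and for Slc22a7 +1512 Dapa minus Case was 13.9 (exact permutation p = 0.182).

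The organic cation pathway pairs uptake by OCT2, encoded by Slc22a2, with apical efflux by MATE1, encoded by Slc47a1. For Slc22a2 the best percentile was 62.1, 39.6, 30.9, 61.2 and 27.9 in Ctrl 1 to 5, ran from 0 to 63.2 in Case (median 48.8) and from 0 to 68.1 in Dapa (median 30.6). The groups overlapped, and Dapa minus Case was -14.5 (exact permutation p = 0.331), or -2.47 without Case 2, Case 3 and Dapa 8 (exact permutation p = 0.897). Its start region Slc22a2 +46 was present in 4 libraries of each group. The intronic region Slc22a2 +7259 was present in 5 Ctrl, 2 Case and 3 Dapa libraries. The presence test of db/db against Ctrl gave Fisher's exact p = 0.0441 (adjusted p = 0.481), or 0.0859 without Case 2, Case 3 and Dapa 8. A summit was listed there for 5 Ctrl, 4 Case and 4 Dapa libraries in the complete lists. Some of the absences were thus summits below the limit on list length.

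For Slc47a1 the gene as a whole differed little, with means of 65.1 ± 8.09 (SD, n = 5) in Ctrl, 58.5 ± 9.83 (SD, n = 6) in Case and 68.3 ± 9.35 (SD, n = 6) in Dapa. Its start region, Slc47a1 +220 (chr11:61377828-61378464), had percentiles of 72.2, 66.9, 51.2, 58.0 and 60.0 in Ctrl 1 to 5. In Case it was absent from Case 3, 4 and 5 and stood at 33.1, 59.5 and 54.6 in Case 1, 2 and 6. Dapa ran from 1.47 to 60.3 with a summit in 6 of 6 libraries. Case and Ctrl overlapped, and Case minus Ctrl was -37.2 (exact permutation p = 0.0281, adjusted p = 0.381), or -39.8 without Case 2, Case 3 and Dapa 8 (exact permutation p = 0.0159). Slc47a1 -499, which holds a TGANTCA match, was absent from all 5 Ctrl libraries. It stood at 34.3 and 50.0 in Case 1 and 5 and at 35.0, 65.9, 53.7 and 9.50 in Dapa 7, 9, 11 and 12. Dapa minus Ctrl was 27.3 (exact permutation p = 0.106), or 32.8 without Case 2, Case 3 and Dapa 8 (exact permutation p = 0.0476, adjusted p = 0.443), and in the complete lists 1 Ctrl, 3 Case and 5 Dapa libraries had a summit there. The intronic region Slc47a1 +9430 was present in 15 libraries, 5 of each group.

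Slco4c1 encodes OATP4C1, a basolateral carrier of digoxin, thyroid hormones and uremic toxins. All of its signal was 1 region at the start, Slco4c1 -40 (chr1:96871901-96872570), whose median summit lies 10 bases from the start of Panct2, a neighbouring gene, so the starts of both genes cannot be told apart. The percentile was 50.4, 64.9, 71.6, 0 and 51.6 in Ctrl 1 to 5. It was 0 in 4 of 6 Case libraries, with 5.38 in Case 3 and 38.4 in Case 6, and 0 in 3 of 6 Dapa libraries, with 65.6, 37.7 and 0.687 in Dapa 7, 11 and 12. The Ctrl and db/db libraries overlapped, since Ctrl 4 was without a summit. Case minus Ctrl was -40.4 (exact permutation p = 0.0281, adjusted p = 0.322), the largest of the 9 genes, and db/db minus Ctrl was -35.4 (exact permutation p = 0.0131, adjusted p = 0.255). Without Case 2, Case 3 and Dapa 8, Case minus Ctrl was -38.1 (exact permutation p = 0.0714) and db/db minus Ctrl -31.9 (exact permutation p = 0.0420). In the complete lists a summit was listed for 5 Ctrl, 3 Case and 5 Dapa libraries, so some of the absences were summits below the equal-length limit.

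**Figure D2:**
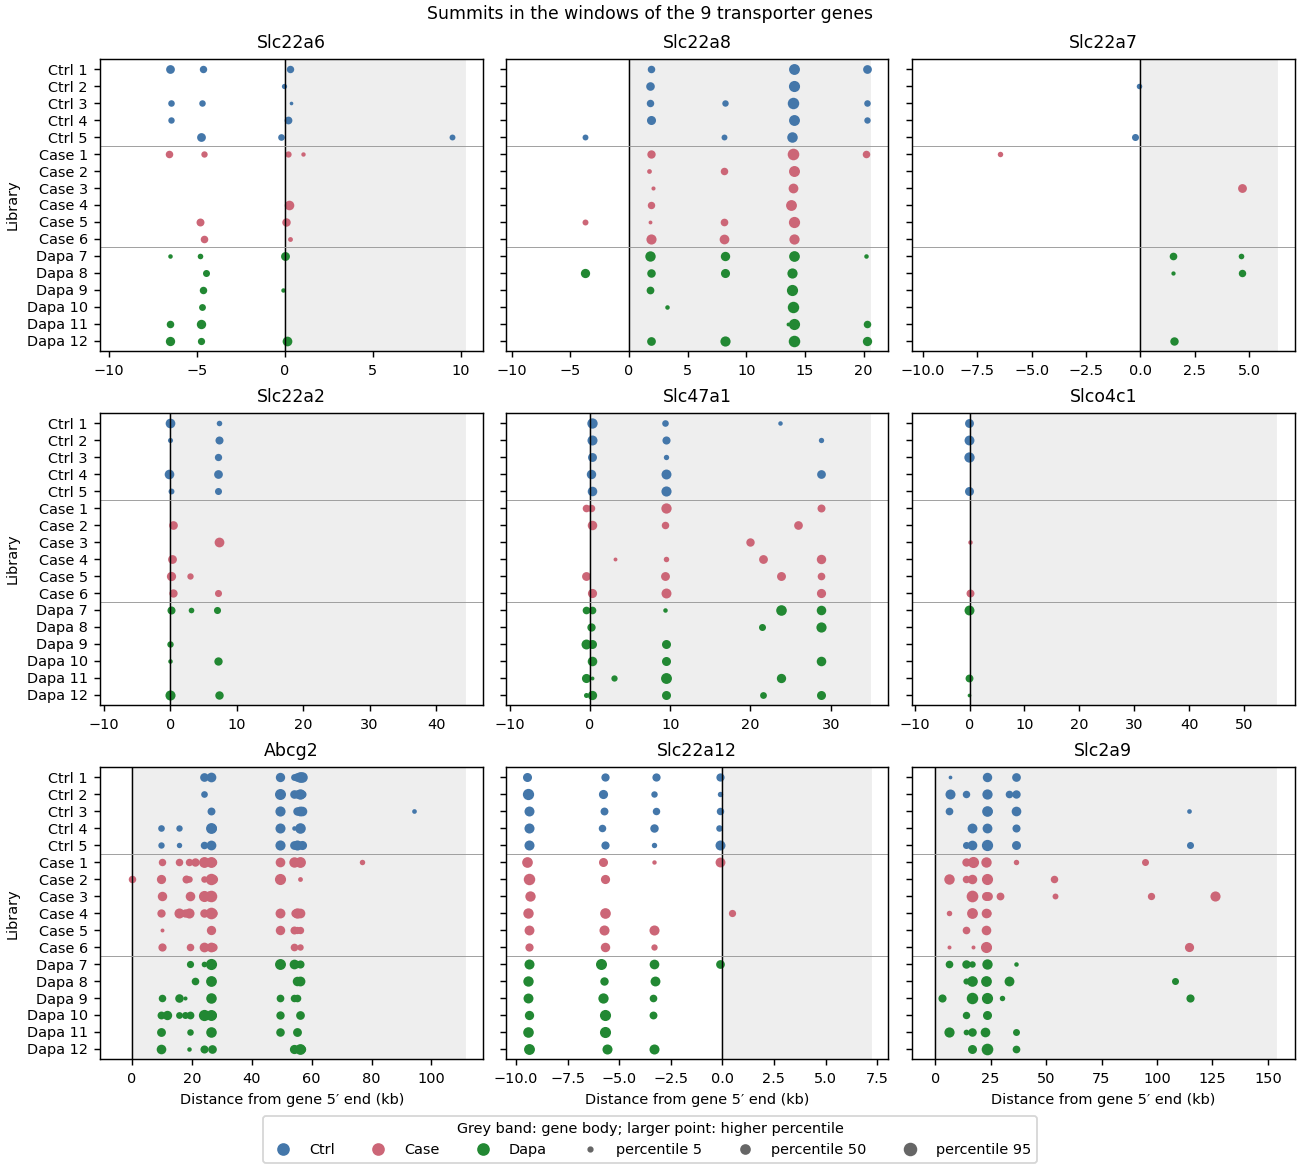
Position of every summit in the windows of the 9 genes (x axis, distance from the annotated 5′ end in kb, grey band for the gene body) in each library (y axis, Ctrl in blue, Case in red, Dapa in green), with larger points for higher percentiles. Slco4c1 had summits only at its start, Slc22a12 mostly upstream of the gene, and Abcg2 and Slc2a9 mainly in introns.

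Abcg2 encodes BCRP, the apical pump that secretes urate and many drugs. Its window (chr6:58574523-58695676) is 121.154 kb long and held 12 of the 45 regions, all in introns. The gene as a whole did not separate the groups, with means of 76.0 ± 6.46 (SD, n = 5) in Ctrl, 79.8 ± 15.5 (SD, n = 6) in Case and 80.4 ± 4.95 (SD, n = 6) in Dapa. At a start inside the gene that GENCODE and RefSeq both list, Abcg2 +56017 was present in 5 Ctrl, 5 Case and 4 Dapa libraries, with its median summit 6 bases before that start. Further downstream, Abcg2 +56751 (chr6:58640939-58641533) had percentiles of 75.2, 40.3, 60.5, 0 and 53.9 in Ctrl 1 to 5. It was absent from all 6 Case libraries and from 5 of 6 Dapa libraries, with 32.1 in Dapa 12. Ctrl 4 and Dapa 12 made the groups overlap, and db/db minus Ctrl was -43.3 (exact permutation p = 0.00210, adjusted p = 0.109), or -42.4 without Case 2, Case 3 and Dapa 8 (exact permutation p = 0.00500).

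Nearer the 5′ end of Abcg2, db/db values were the higher ones. Abcg2 +19297 (chr6:58603375-58604189) was absent from all 5 Ctrl libraries and present in 5 of 6 Case libraries (32.6, 22.1, 60.7, 68.2 and 33.8, and 0 in Case 5) and in 4 of 6 Dapa libraries. The presence test between Case and Ctrl gave Fisher's exact p = 0.0152 (adjusted p = 0.150). In the complete lists 5 Ctrl, 6 Case and 4 Dapa libraries had a summit there, so the Ctrl summits lay below the equal-length limit. Abcg2 +26409 ran from 0 to 81.1 in Ctrl (median 62.3), from 56.7 to 93.9 in Case and from 47.9 to 85.6 in Dapa. The 3 highest Case values, 90.3, 92.3 and 93.9, came from Case 2, 3 and 4, the libraries with the lowest Jaccard indices. Case minus Ctrl was 30.6 (exact permutation p = 0.0498) and 24.7 without Case 2 and Case 3 (exact permutation p = 0.246). Abcg2 +9883 was present in 2 Ctrl, 6 Case and 4 Dapa libraries, and in 5, 6 and 5 of them in the complete lists. Its absences in Ctrl were thus summits below the equal-length limit. Case minus Ctrl was 29.9 for Abcg2 +9883 (exact permutation p = 0.0281, adjusted p = 0.381), or 20.9 without Case 2 and Case 3 (exact permutation p = 0.119). Abcg2 +49419 had means of 69.2 in Ctrl and 34.4 in Dapa, and Dapa minus Ctrl was -34.7 (exact permutation p = 0.0411, adjusted p = 0.449), or -27.8 without Dapa 8 (exact permutation p = 0.0714).

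Slc22a12 encodes URAT1, the carrier through which urate re-enters the cell from the urine. All 5 Ctrl libraries had 4 summits in its window, against 1 to 4 in Case and 2 to 4 in Dapa, and the window (chr19:6535845-6553032) had a best percentile of 52.6, 87.4, 66.5, 67.6 and 67.5 in Ctrl 1 to 5, from 58.7 to 90.9 in Case and from 71.3 to 84.8 in Dapa. The groups overlapped, and Dapa minus Ctrl was 11.2 (exact permutation p = 0.0866, adjusted p = 0.434). The region furthest upstream, Slc22a12 -9390, was present in all 17, with means of 68.3 ± 12.4 (SD, n = 5), 70.0 ± 16.2 (SD, n = 6) and 69.8 ± 8.59 (SD, n = 6) in Ctrl, Case and Dapa. Slc22a12 -5707 (chr19:6548381-6549158) was present in 16 libraries, all but Case 3. Its percentile was 42.3, 54.5, 38.0, 33.4 and 41.7 in Ctrl 1 to 5, and from 44.5 to 84.8 in Dapa (median 77.1). Of the 6 Dapa libraries, 5 stood above every Ctrl library, and Dapa minus Ctrl was 30.6 (exact permutation p = 0.00866, adjusted p = 0.310). In Case it ran from 0 in Case 3 to 77.3 (median 56.8), and Case minus Ctrl was 9.91 (exact permutation p = 0.487). Without Case 2, Case 3 and Dapa 8, Dapa minus Ctrl was 36.3 (exact permutation p = 0.00794, adjusted p = 0.281) and Case minus Ctrl 22.2 (exact permutation p = 0.0238, adjusted p = 0.385).

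At the start of Slc22a12, Ctrl values were the higher ones. Slc22a12 -120 (chr19:6542872-6543466), whose median summit also lies within Nrxn2, a gene annotated over the same bases, had percentiles of 42.1, 12.3, 32.7, 22.9 and 66.6 in Ctrl 1 to 5. It was absent from 5 of 6 Case and 5 of 6 Dapa libraries, with 64.8 in Case 1 and 48.6 in Dapa 7, which both lay within the Ctrl range. Presence in 5 of 5 Ctrl against 2 of 12 db/db libraries gave Fisher's exact p = 0.00339 (adjusted p = 0.201), and 0.0210 (exact) without Case 2, Case 3 and Dapa 8. In the complete lists 5 Ctrl, 1 Case and 2 Dapa libraries had it. Slc22a12 -3311, between these regions, was present in 5 Ctrl, 3 Case and 5 Dapa libraries.

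Slc2a9 encodes GLUT9, and its window (chr5:38349273-38513143) is the longest of the 9, with 163.871 kb and 8 regions, all in introns. The best percentile was 58.2, 70.8, 77.3, 64.6 and 87.4 in Ctrl 1 to 5, ran from 61.0 to 95.2 in Case and from 52.5 to 93.9 in Dapa, and overlapped between groups. Slc2a9 +23168, at starts inside the gene, was present in all 17 libraries, with means of 71.5 ± 11.4 (SD, n = 5), 69.5 ± 13.7 (SD, n = 6) and 74.2 ± 15.3 (SD, n = 6) in Ctrl, Case and Dapa.

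The region Slc2a9 +36273 (chr5:38466511-38467159), in an intron 13261 bases downstream of the nearest annotated start, was lower in db/db mice. Its percentile was 48.5, 44.1, 61.9, 40.0 and 51.6 in Ctrl 1 to 5. In Case it was 12.7 in Case 1 and 0 in the other 5 libraries. In Dapa it was 5.66, 27.2 and 35.7 in Dapa 7, 11 and 12 and 0 in the other 3. All 12 db/db libraries lay below all 5 Ctrl libraries, with no overlap. The means were 49.2 ± 8.33 (SD, n = 5) in Ctrl, 2.12 ± 5.20 (SD, n = 6) in Case and 11.4 ± 15.9 (SD, n = 6) in Dapa. The difference of db/db from Ctrl was -42.4, with an exact permutation p of 0.000162, the smallest that the 6188 relabellings can give, and an adjusted p of 0.0464 by Benjamini-Hochberg over 52562 regions. No region had a smaller adjusted p, and 183 of all regions were called in this contrast. The exact permutation test lost the call of Slc2a9 +36273 when any 1 of the 17 libraries was left out, with adjusted p between 0.0514 and 0.127. The smallest p that the test can give then rises, to 0.000549 without a Ctrl library and 0.000229 without a db/db library. Loss of the call therefore cannot be read as the influence of 1 mouse. Without Case 2, Case 3 and Dapa 8 the difference was -40.2 (exact permutation test, adjusted p = 0.0831). Case minus Ctrl was -47.1 (exact permutation p = 0.00216, adjusted p = 0.199) and Dapa minus Ctrl -37.8 (exact permutation p = 0.00433, adjusted p = 0.283). Dapa minus Case was 9.30 (exact permutation p = 0.303). In the complete lists 5 Ctrl, 2 Case and 3 Dapa libraries had a summit there.

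**Figure D3:**
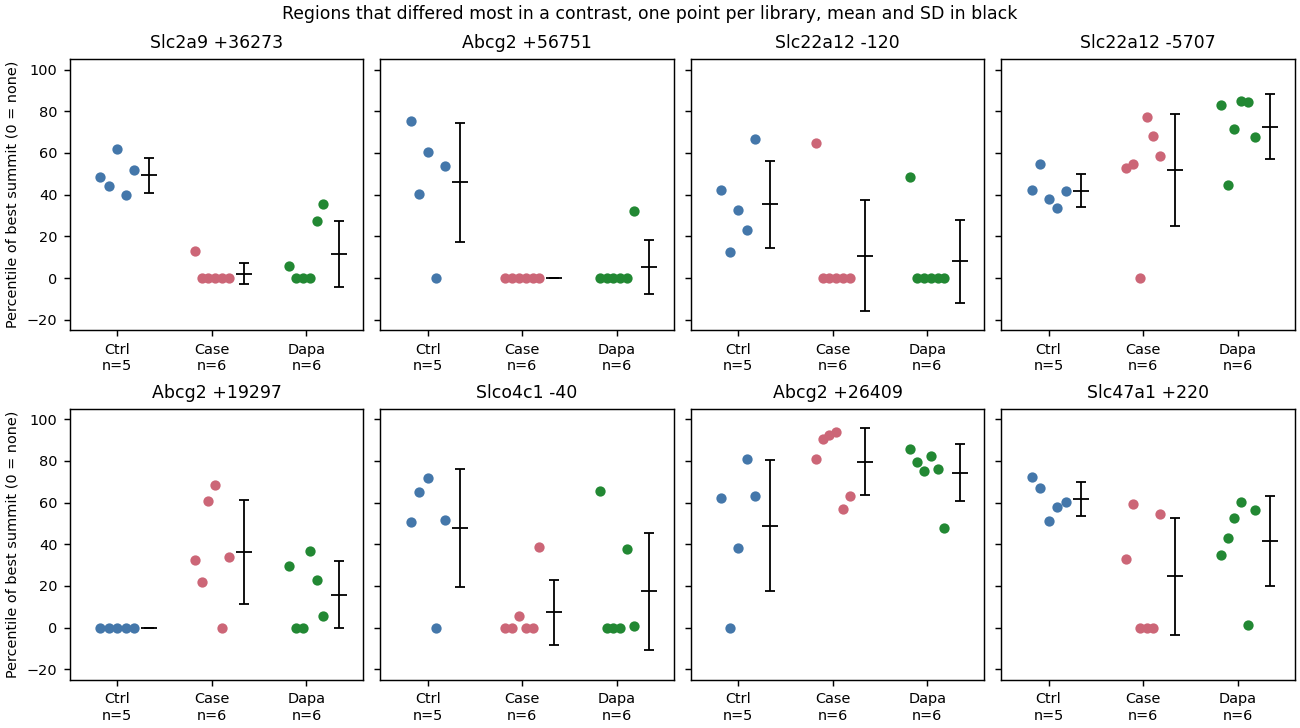
Percentile of the best summit (y axis, 0 for no summit) of the 8 regions with the smallest unadjusted p in any contrast, by group (x axis, 1 point per library, black marks for the mean and SD). The Ctrl points of Slc2a9 +36273 sit between 40.0 and 61.9, above all 12 db/db points, while Ctrl and db/db values overlap in the other 7 panels.

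Over all regions the counts were as follows. Between Case and Ctrl, 7 of the 38 regions of these genes that could be tested by percentile passed an unadjusted p of 0.05, of which 3 were higher and 4 lower in Case, beside 9.95% of all regions tested. Between Dapa and Ctrl there were 4 of 42, with 1 higher and 3 lower, beside 9.74%, and between Dapa and Case 0 of 42, beside 2.49%. Between db/db and Ctrl there were 8 of 45, with 3 higher and 5 lower, beside 10.4%. By presence, 4 of 16, 1 of 15, 0 of 8 and 5 of 34 regions that allowed the test had an unadjusted p under 0.05 in Case minus Ctrl, Dapa minus Ctrl, Dapa minus Case and db/db minus Ctrl, beside 10.1%, 7.42%, 1.21% and 9.02% of all regions tested. After adjustment 1 region was called by percentile, Slc2a9 +36273 in db/db minus Ctrl, where 0.348% of all regions were called and 0.28% were called lower in db/db. In every other contrast and in all presence tests 0 regions of these genes and 0% of all regions were called. The median difference over the 45 regions was 1.60 in db/db minus Ctrl, and 0.658 over all regions tested.

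**Figure D4:**
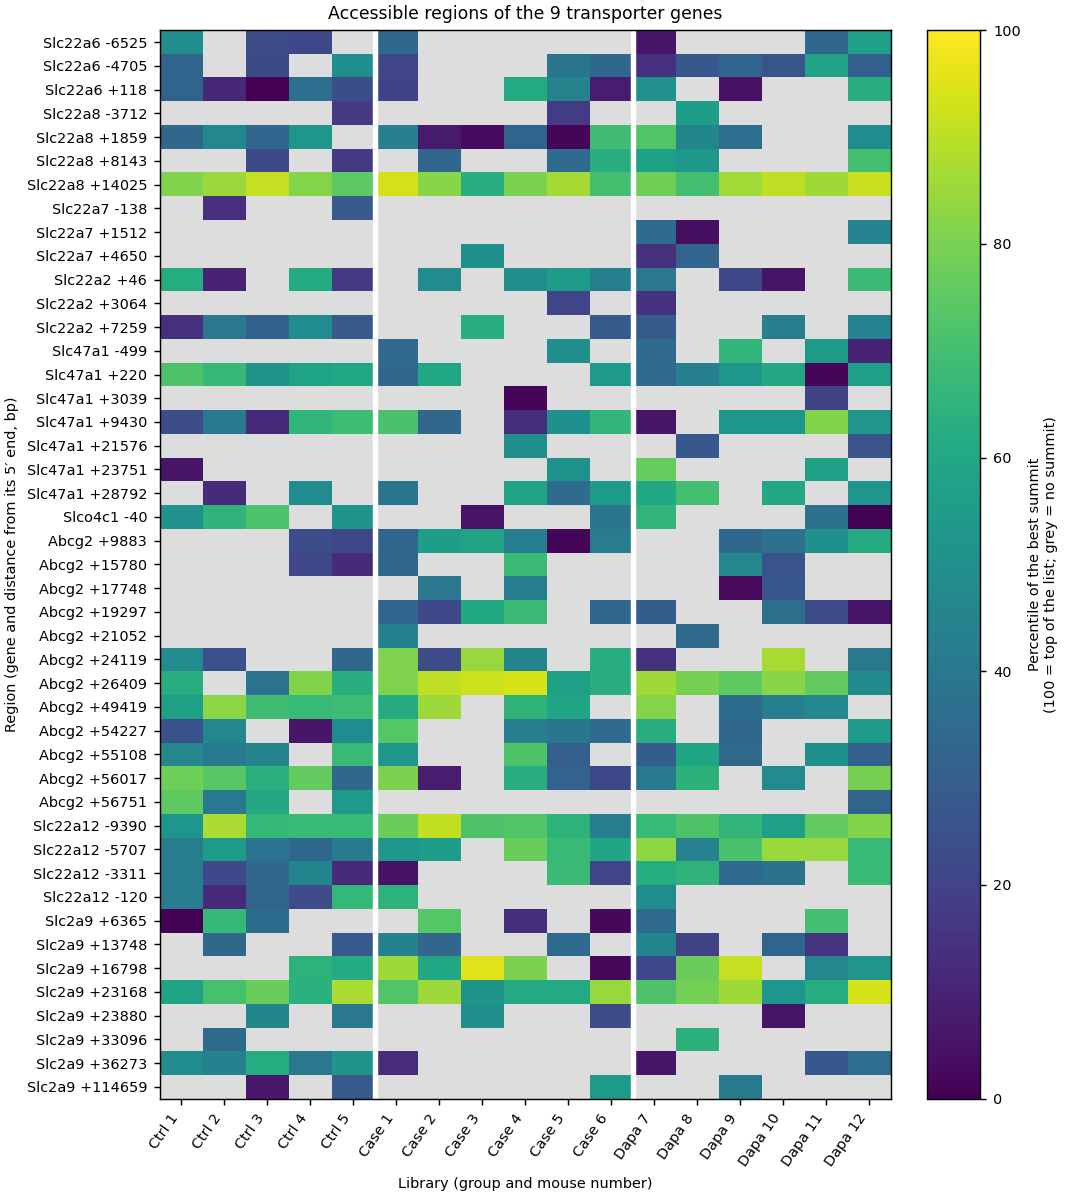
Percentile of the best summit of each of the 45 regions of the 9 genes (rows, named by gene and distance from its 5′ end in bases) in each library (columns, split by white lines into Ctrl, Case and Dapa), with grey for no summit. Slc22a8 +14025, Slc22a12 -9390 and Slc2a9 +23168 are filled in all 17 libraries, and Slc2a9 +36273 is filled in 5 of 5 Ctrl and 4 of 12 db/db libraries.

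Summed over the 9 genes, the libraries held 23 to 31 distinct summits in Ctrl, 19 to 32 in Case and 22 to 33 in Dapa. The number of the 9 genes whose start had a summit within 1 kb ran from 6 to 8 in Ctrl (median 7), from 2 to 6 in Case (median 5) and from 4 to 8 in Dapa (median 4.5). These values overlap between groups and are given as descriptions.

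Among 31 further organic ion carriers, Slco1a4 had no summit in the window in any library. None of the 26 to 28 that could be tested had an unadjusted p under 0.05 in any contrast, against the shares of all genes given above, and their median difference of db/db from Ctrl was -0.21 (all genes tested -0.61). The smallest p values of this list were those of Slc22a4, Slc13a2, Slc47a2, Slc5a8, Slco2b1 and Slco3a1, from 0.0575 to 0.128 by the exact permutation test. Slc47a2, the neighbour and relative of Slc47a1, had means of 19.1 ± 18.0 (SD, n = 5) in Ctrl, 39.2 ± 21.1 (SD, n = 6) in Case and 42.8 ± 28.4 (SD, n = 6) in Dapa, with an exact permutation p of 0.0884 for db/db minus Ctrl. Only 1 Ctrl, 2 Case and 2 Dapa libraries had a summit within 1 kb of its start. The region Slc47a1 +28792 lies 6693 bases from that start, with means of 12.1, 31.1 and 40.4 in Ctrl, Case and Dapa. The same summits may thus count for both genes, and the part of this region was not tested. Slc22a4, a carrier of zwitterions such as ergothioneine, had means of 69.6 ± 8.17 (SD, n = 5), 78.6 ± 9.02 (SD, n = 6) and 76.5 ± 4.14 (SD, n = 6), with an exact permutation p of 0.0575 for db/db minus Ctrl. Of the genes that encode regulators and partners of these carriers, Hnf4a had a summit in all 17 libraries and a mean of 78.8 ± 3.60 (SD, n = 5) in Ctrl, 83.9 ± 9.13 (SD, n = 6) in Case and 83.8 ± 2.59 (SD, n = 6) in Dapa. Its exact permutation p was 0.0216 for Dapa minus Ctrl (adjusted p = 0.291), 0.273 for Case minus Ctrl and 0.989 for Dapa minus Case.

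Likeness between genes was measured as the mean absolute difference in best percentile over the 17 libraries. The most alike gene for Slc22a8 was Upp2 (4.09), for Slc47a1 E030018B13Rik (6.86), for Slco4c1 Kcnj3 (8.01) and for Slc22a12 Them7 (7.08). For Slc2a9 it was Nr4a3 (7.32), for Slc22a7 Zfp647 (5.61), for Slc22a6 Fgf9 (12.4) and for Slc22a2 Lipo3 (12.3). These are the smallest values among all protein-coding genes whose windows do not overlap that of the carrier, over libraries that share list length and ranking, and are given with no test.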

How the data were processed

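ATAC-seq was made from the kidneys of 17 mice, each 1 library. According to the methods of the study, the authors aligned reads to mm10 with Bowtie2 through the pipeline of ENCODE, discarded duplicate reads and those in blacklisted regions, shifted reads for the transposase and called peaks with MACS2, and the labels list DiffBind and HOMER as well. The deposited lists hold 1 summit per line with a score, the -log10 p or q that the authors' MACS2 run wrote; which of them is not given in the sources used here. They were made per library, with replicates kept apart.

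Summits were ranked by score within each library and the lists were brought to about 29702 summits. Summits tied at the limit stayed or went together, by their mean rank. Summits were extended by 250 bases to each side and merged, and regions in at least 2 libraries were kept. Gene windows came from GENCODE on GRCm38.p6 (mm10). Percentiles were compared by exact permutation tests and presence by Fisher's exact tests, all 2-sided, with Benjamini-Hochberg adjustment (Python 3.11.15, numpy 2.4.6, scipy 1.17.1, matplotlib 3.10.9). For percentiles the adjustment ran over all genes or regions with a summit in at least 2 of the libraries compared. For presence it ran over those whose margins allowed an unadjusted p under 0.05. The list cut, the regions and the tests were checked on small made-up lists, random values and gene percentiles shuffled within each gene. The p-values set group differences against the spread between these mice, which the tests treat as independent. The labels name no batch, and where mice shared a cage or day is not given. Effects of batch, cage or day therefore cannot be told apart from differences between groups.

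The 9 genes and the gene lists were chosen with earlier results of these data known. Named regions were those within 1 kb of a start, those in all libraries and up to 3 per contrast with the smallest p. Slc22a8 +1859, Slc22a6 -6525, Slc22a7 +4650, Slc22a2 +7259, Slc47a1 +9430, Abcg2 +9883, Abcg2 +26409 and Abcg2 +49419 were named after their values were seen. RefSeq promoters were given for 7 of the 9 genes, without Slc22a7 and Slc47a1. Alternatives changed the list length, score minimum, window, extension, region filter, statistic and libraries. Another motif that was searched and another marker list are not reported here.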

Additional observations from a re-analysis of the deposited data

Results flagged for a closer look

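In 4 of 30 groups of values examined, 1 library stood further from its nearest neighbour, relative to the range of its group, than Dixon's 95% critical value allows. About 1 in 20 groups, or 1.5 of 30, would do so by chance if the values were normally distributed. Many percentiles here are 0 for no summit, so this rate need not hold and the 4 flags cannot be judged against it. Slc22a7 had a best percentile of 50.0 in Case 3, against 0 to 12.7 in the other Case libraries. Slc22a2 had no summit (0) in Case 1, against 43.0 to 63.2 in the others. Slco4c1 stood at 38.4 in Case 6, against 0 to 5.38. The 9 windows together held 31 summits in Ctrl 5, the highest of the Ctrl libraries.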

How the results depend on the processing

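Of 366 alternative values of the 16 counts of called genes and regions, 344 stayed on the same side and 22 changed. All 22 were in the count of regions called by percentile between db/db and Ctrl, which was 1 (Slc2a9 +36273). The other counts were 0 and stayed 0 in every alternative, while the count that was 1 changed in most of its alternatives. This count was 0 with all summits of each library, 0 with the higher-scoring part of each list, 0 with mean ranks, and 2 with a score of at least 5, where Slc47a1 +220 was called as well. It was 0 without Case 2, Case 3 and Dapa 8, an alternative chosen after seeing the data, and ranged from 0 to 0 when each library was left out in turn. The adjusted p of Slc2a9 +36273 by the exact permutation test ran from 0.0295 to 0.446 over 10 other alternatives and was under 0.05 in 6 of them, including ties at the limit all kept or all dropped, also chosen after seeing the data. Leaving out a Ctrl library raises the smallest p that the test can give from 0.000162 to 0.000549. Leaving out a db/db library raises it to 0.000229. Same-numbered Ctrl and Case mice did not deviate together (correlations of -0.0390 to 0.0591 over genes). Whether the numbers pair mice by cage or day is not given, and these correlations cannot decide it. A fit with the replicate block called 0 genes and 0 regions, and its smallest possible p is 0.0625. Depth is unknown, and several absences in the equal-length lists were summits below the limit: at 29 of the 45 regions the complete lists held more libraries.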
